A study of Mus musculus with 3 samples.

Results

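The genes described here are the Wnt signalling genes that act at or outside the cell surface, as they were measured on microarrays of mouse epididymal fat cells. They were picked by gene name, under a rule that was chosen with earlier results of these data known. Every probe that is not an array control was taken where its gene name on the array is that of a Wnt ligand, a Frizzled receptor, Lrp5 or Lrp6, an R-spondin, one of the secreted antagonists Sfrp1, Sfrp2, Sfrp4, Sfrp5, Frzb, Wif1 and Dkk1 to Dkk4, or Axin2. This gave 46 genes with 66 probes out of 37074 genes with 56605 probes. They were 19 Wnt ligands, 12 Frizzled and LRP receptors, 10 secreted antagonists, 4 R-spondins and Axin2.

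Fat from the epididymal depot of 20-week-old male C57/BL mice was dispersed with collagenase and spun at 9 g for 1 s. The lower phase gave the stromal vascular cells (SVC), a mixed population of connective tissue, vascular and immune cells. Floating cells were spun again at 226 g for 3 min, which left mature adipocytes (MA) at the surface and small proliferative adipocytes (SPA) in the sediment, so that SPA is a fraction enriched by buoyancy and not a sorted or cloned cell. SVC and SPA were grown in DMEM and harvested at 90% confluency, whereas the sources describe no culture of MA, so culture and cell type cannot be told apart in comparisons with MA. The sample titles also give MA a later date than SVC and SPA, which share a date. What the date stands for is not said, and its part in comparisons with MA cannot be told apart either. The labels name no transgene and no agent given to the mice, and the number of mice behind each array is not given in the sources used here. Each group holds 1 Cy3 array made from 50 ng of RNA. No difference between groups therefore has a replicate check, and no test, standard error or p-value can be given.

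Wnt proteins are secreted, lipid-carrying ligands that bind Frizzled receptors on neighbouring cells. Together with the co-receptors Lrp5 and Lrp6 they stop the breakdown of beta-catenin, which then acts with TCF and LEF factors on target genes, and some Wnt proteins signal without beta-catenin. Secreted frizzled-related proteins, to which Frzb belongs, and Wif1 bind the ligands, Dickkopf proteins act mostly at the LRP co-receptors, and R-spondins strengthen the signal by keeping Frizzled receptors at the surface. In fat, beta-catenin signalling is known for holding precursor cells back from becoming adipocytes.

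All values are levels or ratios on the log2 scale. A level is the processed signal of the scanner file relative to the 75th percentile of that array, so that 0 is the brightness of the upper quartile and not an absence of signal. Levels of different probes are not comparable with one another, and where a gene has several probes, the one that was brightest on average was used. Where the scanner software marked a probe as not well above background on 1 compared array, the ratio is a bound. The bound is taken against the lowest signal well above background there, or against the probe's own signal where that was higher. Bounds are written with at least, or with or below where a log2 ratio is negative. A gene read as a bound can only be higher on the array that measured it. A difference of 5-fold, the limit used in the study, was counted as a call, and 2-fold as a second limit. Of the non-control spots, 58.6% in SVC, 61.4% in SPA and 61.3% in MA were well above background, and probes spotted 10 times varied on an array with a median SD of 0.04 in SVC, 0.04 in SPA and 0.05 in MA, which is spread within an array and not between animals or cultures.

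The probes that carry the largest differences are shown first, since each value is the brightness of 1 such sequence. Of each 60-base probe a stretch of 30 bases is given, 5′ to 3′ as the array file writes it. Capitals mark the letters AATAAA, the signal for cleavage and polyadenylation at the end of a transcript. Positions are those of the whole probe in the array annotation, in mm9. The annotation used here does not say whether a probe lies in coding sequence or in a UTR.
Sfrp5 (chr19:42272509-42272568, minus strand): attattgctactgctgtggggccgctgatt
Sfrp4 (chr13:19724488-19724547, plus strand): cacagttgtctgtgtgcatactgtgtaaga
Fzd4 (chr7:96557478-96557537, plus strand): acacacgtaaggtatccagtggatttctct
Axin2 (chr11:108811980-108812039, plus strand): ttctactttagactgtaaattatgcattat
Frzb (chr2:80252127-80252186, minus strand): agtgtgctgaaaAATAAAacaggtatgaag
Sfrp1 (chr8:24559438-24559497, plus strand): ttaaaatagtcattccggagagtcagggaa
Wnt4 (chr4:136855342-136855401, plus strand): tatgaggctccttggcattgtgacatcccc
Wnt6 (chr1:74831461-74831520, plus strand): gagtttagtatcAATAAAgacatttaaatc
Wnt7a (chr6:91313975-91314031, minus strand): tacatcacgaccAATAAAcatggctgtatg
Fzd2 (chr11:102467613-102467672, plus strand): tcacagtctacatgatcaaatacctcatga
The stretches of Frzb, Wnt6 and Wnt7a hold the polyadenylation letters. They occur in 9 of the 66 probes of the Wnt genes (13.6%) and in 9.77% of all 56605 probes. The 22 pairs of probes of the same gene share 0 bases, so a second probe of a gene is a separate reading of it on the same array.

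The fractions differed in their cell markers, which are given before the Wnt genes because any of these cells can supply Wnt RNA. The summed level of 7 adipocyte markers, on the linear scale, was 9.35 in SVC, 65.5 in SPA and 2439 in MA, and Adipoq and Plin1 were not well above background in SVC. The label of MA as adipocytes therefore holds by these markers, and SPA lay between SVC and MA. All 6 endothelial markers, among them Cdh5 and Kdr, were at least 5-fold higher in MA than in SPA, and their summed level was 2.13 in SVC, 2.46 in SPA and 29.6 in MA. For 6 mesothelial markers, which mark the lining of the visceral fat surface, the sum was 26.9 in SVC, 6.96 in SPA and 20.7 in MA, and 5 of the 6 were at least 5-fold lower in SPA than in SVC. The sum of 5 smooth muscle and pericyte markers was 726 in SVC, 329 in SPA and 54.9 in MA. For 7 fibroblast and progenitor markers it was 233, 139 and 305, for 6 macrophage markers 105, 139 and 64.0, for 4 Schwann cell markers 0.287, 0.571 and 2.44, and for 5 lymphocyte markers 3.53, 3.82 and 4.85, each in the order SVC, SPA and MA. Such sums follow the brightest markers, and the log2 ratios of single markers went both ways. In MA over SVC, 4 of the 7 fibroblast and progenitor markers were higher and 3 lower, from -2.53 for Pdgfra to 5.93 for Dpt. In SPA over SVC, 3 of the 6 macrophage markers were higher and 3 lower, from -3.19 for C1qa to 0.88 for Cd68. Red cell genes reached a sum of 343 in MA against 0.185 in SVC and 0.195 in SPA, with 1 of the 4 genes well above background in SVC and in SPA. The sum of 4 proliferation genes was 38.1 in SVC, 22.8 in SPA and 3.57 in MA. In such bulk samples, fewer cells of a type and less RNA per cell cannot be told apart. The part of these cells in the Wnt values below was not tested.

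Of the 46 Wnt genes, 35 were measured, meaning well above background, on 1 array or more and 25 on all 3. The numbers for single arrays were 31 genes in SVC, 26 in SPA and 32 in MA. The 11 genes that stayed below this limit on every array were the ligands Wnt3, Wnt3a, Wnt8a and Wnt10a, the receptor Fzd10, the antagonists Wif1, Dkk1, Dkk2 and Dkk4, and the R-spondins Rspo2 and Rspo4. For these genes the arrays give only an upper bound. Of the Dickkopf family Dkk3 alone was measured, and of the classical secreted frizzled-related proteins and Frzb all 5 were measured on at least 1 array.

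**Figure D1:**
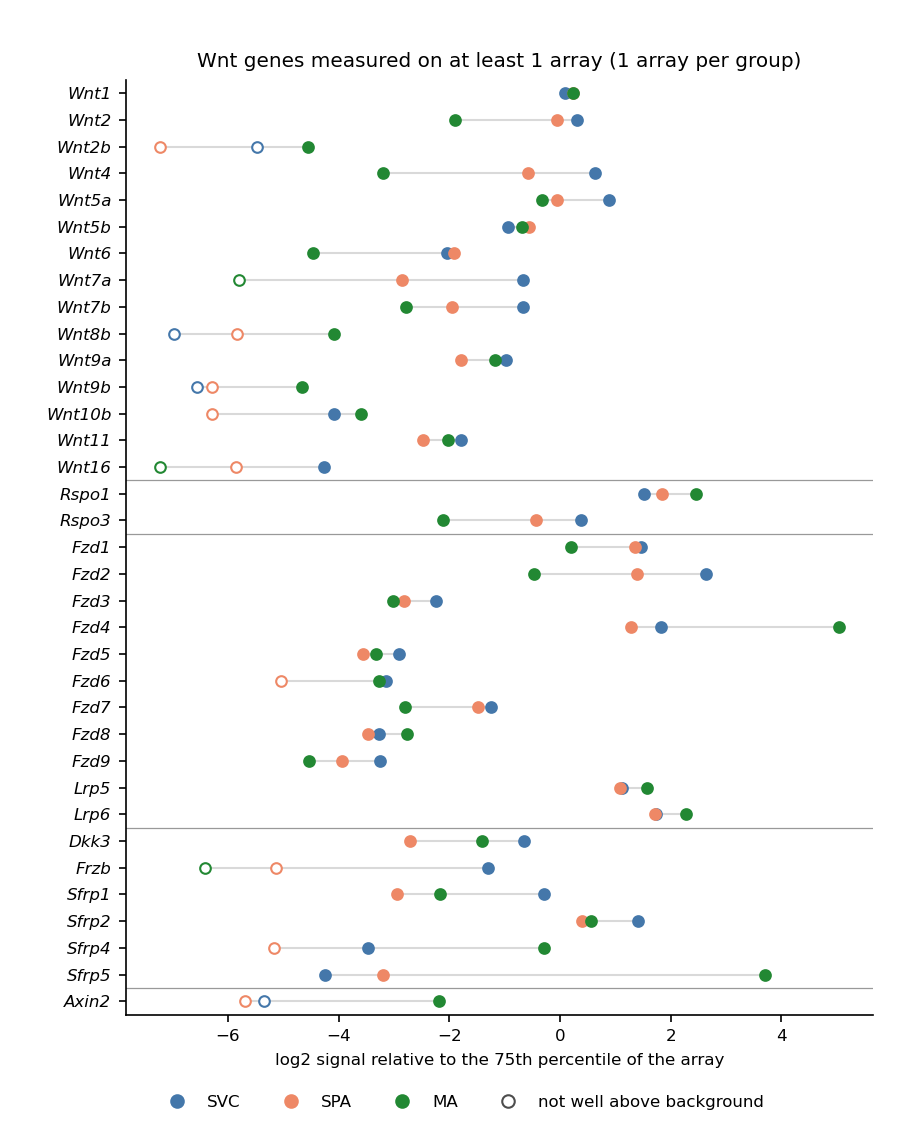
Log2 level of the 35 measured Wnt genes, on the horizontal axis as signal over the upper quartile of the same array, for SVC (blue), SPA (orange) and MA (green). Each point is 1 probe on 1 array, open points were not well above background, and grey rules separate ligands, R-spondins, receptors, antagonists and Axin2. Sfrp5 and Fzd4 stand far to the right in MA, and Frzb is measured in SVC only. Levels can be compared along a row but not between rows.

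The largest ratios were among the secreted antagonists. Sfrp5, a secreted frizzled-related protein known as an adipocyte product, had a level of -4.25 in SVC, -3.19 in SPA and 3.71 in MA. MA was thus 119-fold above SPA and 248-fold above SVC, the largest ratios among the Wnt genes, while SPA was 2.08-fold above SVC at a low level in both. The SPA spot of Sfrp5 had an outlying local background, so that without such spots Sfrp5 has no value against SPA and keeps the ratio of 7.96 on the log2 scale between MA and SVC.

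Sfrp4, another member of that family, had a level of -3.47 in SVC and -0.30 in MA, and was not well above background in SPA. It was at least 28.6-fold higher in MA than in SPA and 9.00-fold higher in MA than in SVC. Between the cultured fractions it was at least 3.18-fold lower in SPA. With the normexp background correction, which adds a constant to every signal and so pulls dim genes together, the log2 ratio of Sfrp4 between MA and SVC was 2.15, under the 5-fold limit.

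Frzb, also called Sfrp3, had a level of -1.30 in SVC and was not well above background in either SPA or MA. It was at least 14.3-fold lower in SPA and at least 14.5-fold lower in MA than in SVC. Its second probe gave the same order, with a log2 ratio of -3.13 or below for SPA and -3.14 or below for MA. Frzb therefore set SVC apart from both other fractions. Under the normexp correction the log2 ratio was -1.72 for SPA and -1.73 for MA, which ends both calls.

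Sfrp1 measured -0.29 in SVC, -2.94 in SPA and -2.17 in MA. It was 6.28-fold lower in SPA than in SVC, with a log2 ratio of -2.65 that became -1.78 under the normexp correction and so fell short of the limit. For Sfrp2 the levels were 1.40 in SVC, 0.40 in SPA and 0.56 in MA, which puts SPA at the 2-fold limit below SVC. Dkk3, a divergent Dickkopf protein, measured -0.65 in SVC, -2.72 in SPA and -1.42 in MA, and was 4.19-fold lower in SPA than in SVC and 2.47-fold higher in MA than in SPA. A second Dkk3 probe gave log2 ratios of -2.17 and 1.46 for these comparisons, and another was not well above background on any array.

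Taking the antagonists as a group, 5 of the 6 with a ratio were at least 2-fold lower in SPA than in SVC, and 2 of them, Frzb and Sfrp1, were at least 5-fold lower. Over all genes 3.25% were at least 2-fold lower and 0.353% at least 5-fold lower in this comparison. The exception was Sfrp5. Frzb and Sfrp4 entered as bounds that only SVC passed, so they could only be lower in SPA. Of the 4 antagonists measured on both of these arrays, 3 were lower in SPA, as were 44.0% of all genes measured on both. The median log2 ratio of these 4 was -1.54, beside 0.05 over all genes measured on both. Mesothelial markers were lower in SPA in the same comparison, with a median log2 ratio of -2.57 over 6 genes, and in MA 4 of the 6 were at least 5-fold above SPA while Wt1 and Upk1b had log2 ratios of -0.14 and -0.03. The 5 smooth muscle and pericyte markers had a median log2 ratio of -1.01 for SPA over SVC, with Cnn1 at -3.75, Acta2 at -1.21, Tagln at -1.01, Myh11 at -0.28 and Rgs5 at 1.58. The part of these cells in the antagonist values was not tested.

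The Wnt ligands past the 5-fold limit were all lower in MA. Wnt4, a ligand with roles in the development of kidney and gonad, measured 0.63 in SVC, -0.59 in SPA and -3.20 in MA. Each fraction was thus below the one before it, with SPA 2.32-fold below SVC and MA 6.14-fold below SPA and 14.3-fold below SVC. With the normexp correction the log2 ratio between MA and SPA was -1.61, under the limit, whereas MA stayed more than 5-fold below SVC.

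Wnt6, which is expressed in precursors of fat cells, had nearly equal levels of -2.05 in SVC and -1.92 in SPA and a lower one of -4.47 in MA. MA was 5.86-fold below SPA and 5.35-fold below SVC. The normexp correction brought the log2 ratios to -1.06 and -0.997, so that the call does not hold under it. Wnt7a had a level of -0.67 in SVC and -2.85 in SPA and was not well above background in MA. It was 4.52-fold lower in SPA than in SVC, just short of the limit, at least 4.92-fold lower in MA than in SPA and at least 22.3-fold lower in MA than in SVC. Under the normexp correction the log2 ratio between MA and SVC was -1.98, which ends that call. At the second Wnt7a probe the log2 ratio was -1.91 for SPA over SVC and -3.37 or below for MA over SVC.

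Wnt2, known from lung development, measured 0.30 in SVC, -0.06 in SPA and -1.90 in MA, and MA was 3.59-fold below SPA and 4.61-fold below SVC. Wnt7b measured -0.67, -1.95 and -2.78 in the same order, a difference of 4.33-fold between MA and SVC. The probes of Wnt7b differed, with a log2 ratio of SPA over SVC of -1.28 at the brighter probe and -0.18 at the other, whose SPA spot had an outlying local background. Wnt5a, the best known ligand that acts without beta-catenin, had a level of 0.89 in SVC, -0.06 in SPA and -0.32 in MA. Its 3 probes put MA below SVC by a log2 ratio between -1.24 and -1.14, but they differed in sign between MA and SPA, where the brightest gave -0.25 and the next 0.13.

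Several ligands moved little. Wnt1 had a level of 0.10 in SVC, 0.24 in SPA and 0.23 in MA, with ratios between 1.01-fold and 1.10-fold. For Wnt5b the levels were -0.95, -0.56 and -0.69, for Wnt9a -0.97, -1.78 and -1.18, and for Wnt11 -1.78, -2.48 and -2.03, in the order SVC, SPA and MA. None of these 4 ligands differed by 2-fold between any pair of fractions. The sign for Wnt5b between MA and SPA turned with the probe, from -0.13 to 0.28 on the log2 scale, and that for Wnt1 turned with the set of probes behind the percentile, from -0.01 to 0.07.

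The remaining ligands were near the limit of measurement. Wnt10b, which restrains the formation of fat cells when it is supplied to precursors, had a level of -4.08 in SVC and -3.60 in MA and was not well above background in SPA. It was at least 2.09-fold lower in SPA than in SVC and at least 2.90-fold higher in MA than in SPA. Its spots at this probe had an outlying local background on all 3 arrays, so that its values rest on spots the software marked. A second Wnt10b probe was not well above background on any array. Wnt16 was measured in SVC only, at -4.27, at least 1.83-fold above SPA. Wnt2b, Wnt8b and Wnt9b were measured in MA only, at -4.56, -4.08 and -4.67, and lay at least 1.49-fold, 2.08-fold and 1.38-fold above SPA.

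Over the ligands as a group, 0 of the 14 with a ratio were at least 5-fold higher in MA than in SPA and 2 were at least 5-fold lower, against 5.49% and 3.98% of all genes. Between MA and SVC, 3 of 15 were at least 5-fold lower, against 3.97% of all genes. Between SPA and SVC 0 of 12 passed the limit in either direction, where 0.322% of all genes were higher and 0.353% lower, and 4 were at least 2-fold lower, against 3.25%. Ligands measured on both arrays had a median log2 ratio of -0.76 between SPA and SVC, -0.25 between MA and SPA and -0.72 between MA and SVC, beside 0.05, -0.08 and -0.07 over all genes measured on both. Proliferation genes were also lower in MA, all 4 of them at least 5-fold below SVC. Of the 5 smooth muscle and pericyte markers, Acta2, Cnn1 and Tagln were at least 5-fold below SVC in MA as well, while Myh11 and Rgs5 were above it, at log2 ratios of 0.78 and 6.91.

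Of the 11 receptors with a ratio, Fzd4 alone (9.09%) was at least 5-fold higher in MA, both over SPA and over SVC. Of all genes, 5.49% and 5.74% were at least 5-fold higher in these comparisons. Fzd4 binds both Wnt proteins and the unrelated ligand Norrin and is known for its role in blood vessels of the retina. Its level was 1.83 in SVC, 1.27 in SPA and 5.04 in MA, so that the cultured fractions were within 1.47-fold of each other while MA was 13.6-fold above SPA and 9.26-fold above SVC. The second probe, which lies 3941 bases away, gave log2 ratios of 3.96 and 3.46, beside 3.77 and 3.21 at the first. Tspan12, a membrane protein that works with Fzd4 in the response to Norrin, had a level of -0.48 in SVC, -0.01 in SPA and 3.59 in MA, with log2 ratios of 3.60 over SPA and 4.06 over SVC. The Tspan12 spots in SVC and MA had an outlying local background, so both ratios rest on marked spots. Norrin itself, encoded by Ndp, was not well above background on any array. The 6 endothelial markers had a median log2 ratio of 3.61 between MA and SPA and of 3.46 between MA and SVC, and their part in the Fzd4 value was not tested.

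Fzd2 went the other way, as the only receptor of the 11 at least 5-fold lower in MA than in SVC, against 3.97% of all genes. It measured 2.63 in SVC, 1.40 in SPA and -0.48 in MA, and was 2.36-fold lower in SPA than in SVC, 3.66-fold lower in MA than in SPA and 8.61-fold lower in MA than in SVC. Fzd1, Fzd7 and Fzd9 were also lowest in MA, by 2.39-fold, 2.95-fold and 2.44-fold against SVC. Their levels in SVC, SPA and MA were 1.46, 1.35 and 0.21 for Fzd1, -1.24, -1.48 and -2.80 for Fzd7, and -3.25, -3.93 and -4.53 for Fzd9.

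Fzd6 had similar levels of -3.15 in SVC and -3.26 in MA and was not well above background in SPA, at least 3.73-fold below SVC. Fzd3 measured -2.25, -2.82 and -3.02, Fzd5 -2.90, -3.55 and -3.33, and Fzd8 -3.28, -3.46 and -2.77 in SVC, SPA and MA, all within 2-fold. The co-receptors also stayed within 2-fold at their brightest probes, with Lrp5 at 1.12, 1.09 and 1.58 and Lrp6 at 1.73, 1.71 and 2.28. For Lrp5 the second probe went against the first, at a log2 ratio of -1.62 or below between MA and SVC beside 0.46. The direction of Lrp5 in MA is therefore not settled.

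All 10 receptors measured in both SVC and SPA were lower in SPA, where 44.0% of all genes measured on both were below 0, and their median log2 ratio was -0.40, beside 0.05 over all genes. Of the 11 with a ratio, 9 stayed within 2-fold and 2 were at least 2-fold lower, against 3.25% of all genes. Among the 10, the log2 ratios of Lrp6 at -0.015 and Lrp5 at -0.036 were no larger than the median SD of 0.04 among repeated spots. Lrp6 took the opposite sign under the normexp correction, at a log2 ratio of 0.00145. In MA over SPA the 10 receptors measured on both arrays split into 5 lower and 5 higher, where 53.7% of all genes were lower.

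**Figure D2:**
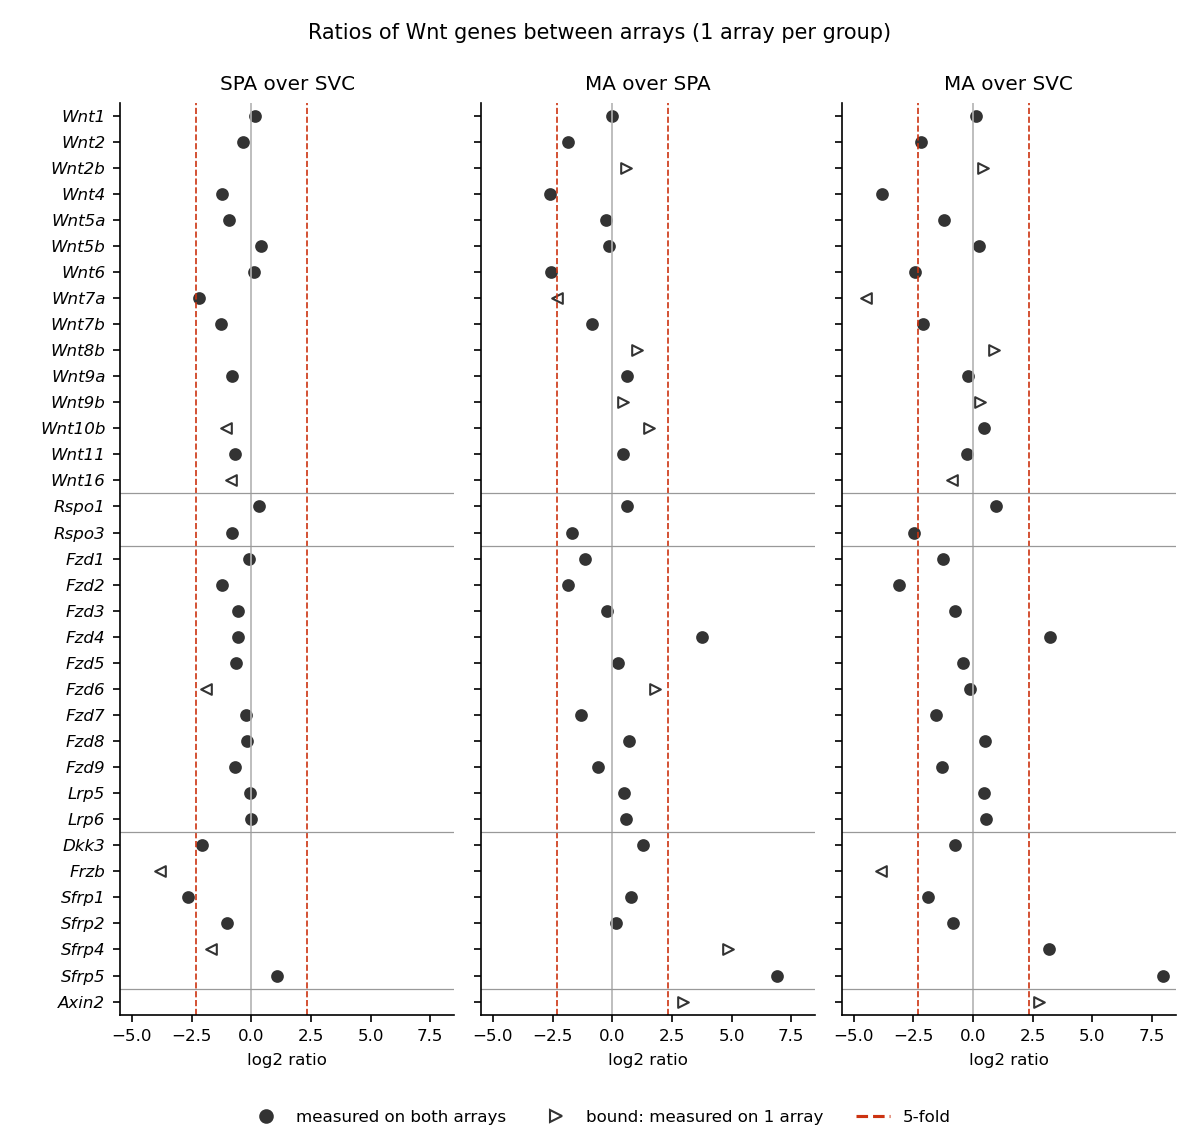
Log2 ratio of each of the 35 measured Wnt genes for SPA over SVC, MA over SPA and MA over SVC. Filled points were well above background on both arrays, open triangles are bounds and point away from 0, dashed lines mark 5-fold, and each ratio rests on 1 array per group. Most points lie left of 0 in SPA over SVC, and Sfrp5, Sfrp4, Fzd4 and Axin2 lie beyond the right line in both comparisons with MA.

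The R-spondins and Axin2 complete the set. Rspo1 had a level of 1.52 in SVC, 1.85 in SPA and 2.46 in MA, within 2-fold throughout. Rspo3 measured 0.38, -0.43 and -2.11 in that order and was 5.64-fold lower in MA than in SVC. This call rests on the brighter probe, since the second gave a log2 ratio of -1.22 or below and the normexp correction one of -1.93. Rspo1 and Rspo3 thus moved in opposite directions in MA.

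Axin2, a negative regulator that beta-catenin signalling itself induces and that is widely read as its target, was not well above background in SVC or SPA. In MA its level was -2.18. It was therefore at least 7.73-fold above SPA and at least 6.81-fold above SVC. The second Axin2 probe was also measured in MA only, with log2 ratios of at least 1.24 and 1.06. Under the normexp correction the log2 ratios were 1.16 and 1.13, and with the median of both probes 2.10 and 1.91. The 5-fold call therefore does not hold under these settings. The direction could not turn under them, because only MA passed the filter at both probes.

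Counting all 46 genes, 0 were at least 5-fold higher and 2 of the 31 with a ratio at least 5-fold lower in SPA than in SVC, where 0.322% and 0.353% of 22664 genes were called. At 2-fold, 1 was higher and 11 were lower, against 3.90% and 3.25% of all genes. Of the 26 Wnt genes measured on both arrays, 21 (80.8%) were below 0, with a median log2 ratio of -0.61, beside 44.0% of 20699 genes and a median of 0.05. The 5 bounds were all lower in SPA, which follows in part from the filter, because a gene that only SVC passes can only be lower in SPA.

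In MA over SPA, 4 of 33 Wnt genes were at least 5-fold higher, against 5.49% of 23956 genes, and 2 were at least 5-fold lower, against 3.98%. The former were Sfrp5, Sfrp4, Fzd4 and Axin2 and the latter Wnt4 and Wnt6. Sfrp4 and Axin2 are bounds in this comparison that only MA passed, so they could only be higher in MA. In MA over SVC, 4 of 35 were higher, against 5.74% of 23453 genes, and 6 were lower, against 3.97%. The higher genes carried the same 4 names, and the lower ones were Wnt7a, Frzb, Wnt4, Fzd2, Rspo3 and Wnt6. Among these, Axin2, Wnt7a and Frzb are bounds, so the filter fixed their direction as well. At 2-fold the counts in MA over SPA were 8 higher and 8 lower, against 15.8% and 17.9% of all genes, and in MA over SVC 4 higher and 13 lower, against 17.3% and 18.0%. The comparisons with MA share its array, and those with SPA share the SPA array, so they are not independent of one another.

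**Figure D3:**
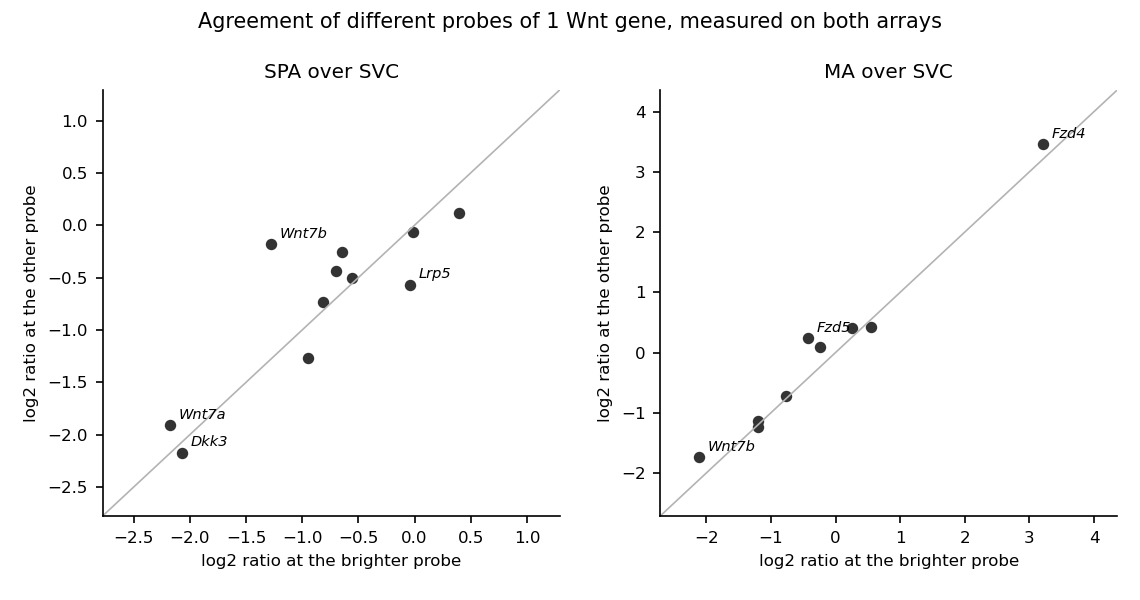
Agreement of different probes of 1 Wnt gene, for SPA over SVC and MA over SVC. The horizontal axis is the log2 ratio at the brightest probe on average, the vertical axis that at another probe, each point is a pair measured on both arrays, and the line marks equality. Wnt7b in SPA over SVC lies farthest from the line, and the points of Fzd4 and Dkk3 lie close to it.

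Of the 66 spots of Wnt genes, 4 in SVC, 10 in SPA and 2 in MA had an outlying local background. In SPA they included those that give the values of Sfrp5, Fzd1, Wnt5b, Wnt9a and Wnt11, so ratios of these genes against SPA rest on marked spots.

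Different probes of a gene measured on both arrays differed in their log2 ratio by a median of 0.27 over 11 genes for SPA over SVC, 0.23 over 8 genes for MA over SPA and 0.19 over 8 genes for MA over SVC. The largest of these gaps was 1.09, for Wnt7b, while the bound at the second Lrp5 probe lay farther from the first. This is the only repeat reading of a Wnt gene that the arrays offer, and it carries no information on the spread between animals or cultures. Small differences, such as those of Wnt1, Wnt5b, Lrp6 and Rspo1 between SVC and SPA, are of the size of the gap between probes.

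The start regions of 3 genes that were higher together in MA are shown next, as the 250 bases before the annotated transcript start in RefSeq, assembly GRCm38.p6, 5′ to 3′ on the strand of the gene. Capitals mark CG pairs, the sites of DNA methylation. Methylation and factor binding were not measured here.
Sfrp5 (chr19:42202253-42202502, minus strand): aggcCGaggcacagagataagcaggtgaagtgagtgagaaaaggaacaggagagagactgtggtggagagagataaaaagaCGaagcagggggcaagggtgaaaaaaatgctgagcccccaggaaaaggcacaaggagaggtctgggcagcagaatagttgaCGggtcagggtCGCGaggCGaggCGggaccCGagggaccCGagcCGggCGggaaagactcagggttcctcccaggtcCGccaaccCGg
Fzd4 (chr7:89404116-89404365, plus strand): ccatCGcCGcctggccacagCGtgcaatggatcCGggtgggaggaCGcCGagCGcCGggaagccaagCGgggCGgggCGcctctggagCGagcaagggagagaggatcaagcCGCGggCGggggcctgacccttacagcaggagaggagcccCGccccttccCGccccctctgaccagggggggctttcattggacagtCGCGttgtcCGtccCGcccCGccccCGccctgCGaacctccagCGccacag
Axin2 (chr11:108920099-108920348, plus strand): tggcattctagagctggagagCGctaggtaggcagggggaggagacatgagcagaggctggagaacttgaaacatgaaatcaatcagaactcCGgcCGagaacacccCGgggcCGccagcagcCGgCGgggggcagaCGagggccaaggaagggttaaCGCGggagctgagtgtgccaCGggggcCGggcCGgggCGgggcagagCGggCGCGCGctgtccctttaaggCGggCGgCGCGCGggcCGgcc
The window of Sfrp5 holds 13 CG pairs and 59.6% G and C, that of Fzd4 25 and 72.8%, and that of Axin2 24 and 69.2%. RefSeq start regions were found for 30 of the 46 Wnt genes, with 33 starts, and over those windows the median was 22 CG pairs and 68.0% G and C, beside 6 and 52.4% over 32851 starts of all genes. Wnt4 and Wnt9a, with 44 and 48 pairs, were richest. Each motif was searched on both strands. The letters CTTTGAT, a match to the TCF and LEF consensus, were found in 2 of the 33 windows, those of Wnt11 and Wnt5b, beside 3.21% of all windows. The letters TTGCNNAA of C/EBP factors were found in 3, for Fzd1, Sfrp2 and Wnt3, beside 9.56%. Such matches only describe the letters of the window. No start region was matched for Sfrp1, Sfrp4 or Fzd2.

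Genes of the same pathway outside the rule were read from lists of 54 names, 53 of them on the arrays. Of 22 measured genes that carry the signal inside the cell, among them Ctnnb1 (beta-catenin), Apc, the Dishevelled genes and the TCF and LEF factors, 0 were 5-fold different in any comparison. Between SPA and SVC all 22 stayed within 2-fold, as did 20929 of 22664 genes read, and in MA over SPA 5.49% of all genes were at least 5-fold higher and 3.98% lower. Among 14 measured genes for Wnt secretion, other receptors and receptor turnover, Tspan12 was called as given above and Ror1, a Wnt5a receptor, was lower in MA than in SVC at a log2 ratio of -2.67. Ror1 measured 0.27 in SVC, -0.81 in SPA and -2.40 in MA.

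Among the known targets of beta-catenin, 14 were measured in at least 1 of SVC and SPA. Apcdd1, a membrane protein that inhibits Wnt signalling and is also its target, had a level of 0.60 in SVC, -0.03 in SPA and 4.67 in MA, with log2 ratios of 4.71 over SPA and 4.07 over SVC. Wisp1 and Wisp2, secreted matrix proteins of the CCN family, went the opposite way. Wisp1 measured 3.67, 2.68 and -2.89 and Wisp2 2.68, 2.88 and -1.95 in SVC, SPA and MA, and their log2 ratios of MA over SPA were -5.57 and -4.83. Against SPA, 1 of 13 targets was called higher in MA and 2 of 13 lower, where 5.49% and 3.98% of all genes were. Over all listed genes outside the rule that were measured on both arrays, 23 of 45 (51.1%) were below 0 in SPA over SVC, with a median of -0.01 on the log2 scale.

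**Figure D4:**
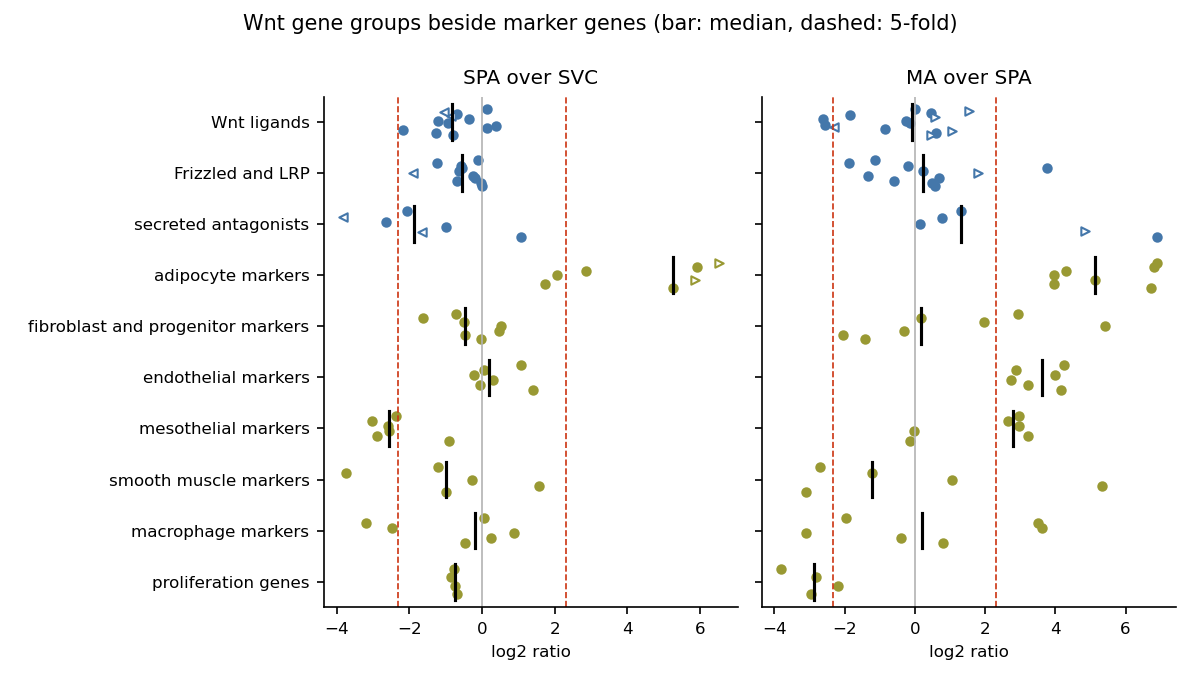
Log2 ratios of 3 groups of Wnt genes (blue) beside marker genes of cell types and proliferation genes (olive), for SPA over SVC and MA over SPA. Each symbol is 1 gene, open triangles are bounds, black bars are group medians with bounds at their value, and dashed lines mark 5-fold. In SPA over SVC all 3 Wnt groups and the fibroblast, mesothelial, smooth muscle and proliferation genes lie mostly left of 0. Endothelial and adipocyte markers all lie right of the 5-fold line in MA over SPA.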

How the data were processed

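Gene expression was measured on 3 Agilent 1-colour arrays of mouse epididymal fat, 1 each of SVC, SPA and MA, grouped by their records. The authors deposited scanner intensity values per spot from Agilent Feature Extraction 10.7.3.1, named in the submitters' processing notes, which give a processed signal after background subtraction, beside the raw and local background signals. They also deposited a table of ratio values that equal the processed signal times 1 constant per array, within a relative 1.37e-06. GeneSpring GX is named by the study, and its normalization is not given in the sources used here.

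Neither control spots nor those marked as outliers were used, replicate spots of a probe were averaged, and log2 processed signals were centred on the 75th percentile of the non-control spots, which was 430 in SVC, 439 in SPA and 366 in MA. Where a gene has several probes, the brightest on average was taken. The lowest signal well above background, which sets bounds unless the probe's own signal was higher, was 13.9 in SVC, 12.5 in SPA and 10.3 in MA. Precision is limited by the number of arrays.

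Every Wnt gene was named, with levels where it was well above background on at least 1 array, and pathway genes outside the rule were named where they passed 5-fold at least once. A few others are named as examples and were chosen after their values were seen. The members and all gene lists were chosen with earlier results of these data known. Of the 66 probes, 58 had an accession in the RefSeq table of GRCm38.p6, all with the same symbol. Start regions came from RefSeq, probe positions from the array annotation in mm9. The 10 alternatives concerned the background correction, the scaling, the source of the values, dim probes, several probes per gene, outlying local background and the fold limit. The call rule was tested on data simulated from the SVC array, with 8-fold changes given only to genes above a set brightness. It called 100 of 100 raised genes, 97 of 100 lowered genes and 0 unchanged ones. That simulation held no changed dim genes and no spread between animals or cultures, so it says nothing on those. Computation used Python 3.11.15 (numpy 2.4.6, pandas 2.3.3, matplotlib 3.10.9), while the normexp correction, with an offset of 50, was run in limma 3.58.1 under R 4.3.3.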

Additional observations from a re-analysis of the deposited data

How the results depend on the processing

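Of 857 ratios of single Wnt genes under the alternatives, 825 kept their sign and their side of the 5-fold limit, 14 fell short of the limit, 6 newly passed it, and 12 ratios under the limit changed sign. Part of this agreement was fixed in advance. The settings for several probes cannot change the 28 genes with 1 probe, and those for dim probes leave ratios measured on both arrays as they were. The deposited ratios are the same signals times 1 constant per array, and a bound cannot change sign while the filter is used. The normexp correction left 0 genes lower in SPA than in SVC, 0 lower in MA than in SPA, 2 higher in MA than in SVC (Fzd4 and Sfrp5) and 2 lower (Fzd2 and Wnt4). By its construction it adds 50 to each signal, which pulls dim genes together. With probes dropped unless both arrays measured them, 1 gene (Sfrp1) was lower in SPA than in SVC and 2 genes (Fzd4 and Sfrp5) were higher in MA than in SPA, since no bounds are then used. At a limit of 2-fold, 1 gene was higher and 11 were lower in SPA than in SVC, 8 were higher and 8 lower in MA than in SPA, and 13 were lower in MA than in SVC. Quantile normalization added Wnt7a to the genes lower in MA than in SPA, at a log2 ratio of -2.35. Without a filter on dim probes Wnt7a passed too, at -2.96, and Wnt10b and Wnt2b joined the genes higher in MA than in SPA, at 2.69 and 2.67, which makes 6. In MA over SVC that setting added Wnt8b at 2.90 and Wnt16 at -2.96. Other counts stayed within 1.5 times those given. Rspo3 between MA and SVC was at -1.86 with the median of its probes. No replicate could be left out, because each group holds 1 array. No paired analysis was possible because each group has a single array. Genes near background have only bounds, and no value here shows the spread between animals or cultures.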

Other observations

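Several Wnt genes lie next to each other in the genome, and the neighbours were not measured alike. By the probe positions in mm9, Wnt6 and Wnt10a lie 19.1 kb apart on chromosome 1, and Wnt6 was well above background on 3 arrays while Wnt10a was on 0. Wnt10b and Wnt1 lie 21.9 kb apart on chromosome 15, with Wnt1 measured on 3 arrays and Wnt10b on 2. On chromosome 11, Wnt3a and Wnt9a lie 85.2 kb apart with 0 and 3 arrays, and Wnt9b and Wnt3 88.5 kb apart with 1 and 0.

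Some pathway genes outside the rule came close to the 5-fold limit, and they were chosen after their values were seen. Lgr4, a receptor for R-spondins, had a log2 ratio of 2.30 for MA over SPA, just under it. Ccnd1, a cell cycle gene and Wnt target, measured 3.57 in SVC, 3.38 in SPA and 1.31 in MA, with a log2 ratio of -2.07 for MA over SPA. Porcn, the enzyme that attaches the lipid to Wnt proteins, had a level of -1.17 in SVC, -1.13 in SPA and 0.79 in MA.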
